A study of Homo sapiens with 6 samples.

Results

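VMP1, the gene that hosts the microRNA gene MIR21, was lower on the miR21 arrays at all 4 of its probe sets and within all 3 replicate numbers. The log2 differences lay between -0.85 and -0.42, and none of them passed the test. Of the 4 probe sets, 3 also name MIR21. Among genes with at least 4 tested probe sets, 2.23% were likewise lower at all of them in all 3 numbers. The 9 genes of the microRNA machinery examined with VMP1 were DROSHA, DGCR8, XPO5, DICER1, TARBP2, AGO1, AGO2, AGO3 and TNRC6A. They showed no common direction. The members were taken by gene symbol: every probe set that the platform annotation assigns to 1 of these 10 genes, and for VMP1 also those that it assigns to VMP1 and MIR21 together. The 10 genes stand among 21357 that the annotation names, and the rule gave 31 of the 54675 probe sets on the array, 28 with a single gene name and 3 that name VMP1 with MIR21. They cover 9 genes, because all 4 probe sets of DGCR8 also carry the name of the microRNA gene MIR1306. Another 3 probe sets name AGO2 with CASC7, which the RefSeq table used here lists as a synonym of AGO2. These 7 are described beside the 31 and always as such.

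The cells were SKOV3, an established ovarian cancer line that the labels call high-grade serous. One group of 3 samples had received a miR21 precursor at 5 nM and the other group of 3 a negative control precursor, and RNA of both was taken after 24 h. All 6 samples thus carried a transfected precursor, and each difference below is that between the precursors. No dose is given here for the control precursor, so equal doses cannot be assumed. Each sample was hybridised to 1 Affymetrix U133 Plus 2.0 array, and the deposited value of a probe set is a linear MAS5 signal without unit. Each probe set binds with its own strength, so no level of a probe set is set against that of another. With 3 arrays in a group, precision is limited throughout.

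MicroRNAs are made in steps. The nuclear RNase DROSHA and its RNA-binding partner DGCR8 cut a hairpin out of a long primary transcript, exportin-5 (XPO5) carries the hairpin to the cytoplasm, and DICER1, with the partner protein TRBP (TARBP2), cuts it to a short duplex. An Argonaute protein (AGO1, AGO2 or AGO3 here) keeps the guide strand and binds messenger RNAs, and TNRC6A, a GW182 scaffold protein, links Argonaute to the enzymes that shorten the poly(A) tail. A transfected precursor enters this path after transcription, so it does not depend on the host gene. VMP1 itself encodes a membrane protein of the endoplasmic reticulum that is needed to form autophagosomes.

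The guide strand that the added precursor is named after is short, and its bases at positions 2 to 8, the seed, choose most of its targets. The RefSeq microRNA table (build GRCh38.p14) holds 2370 mature microRNA names, and 2 of them share this seed. They are printed to show the guide strand concerned and the other human microRNA that pairs with the same seed sites, with the seed in capitals.
hsa-miR-21-5p: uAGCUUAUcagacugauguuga
hsa-miR-590-5p: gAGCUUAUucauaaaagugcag
In the genome the first lies at chr17:59841273-59841294 on the plus strand and the second at chr7:74191213-74191234 on the plus strand. The MIR21 hairpin (chr17:59841266-59841337, 72 bases) lies inside the span of VMP1 (chr17:59707654-59842255), 918 bases before its annotated end. The array labelling starts from longer RNA and does not read mature microRNAs, so the level of miR-21-5p after transfection was not measured here.

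Replicate numbers differed strongly from each other, which bears on every value below. The median signal was 125 and 117 on the control and miR21 arrays of number 1, and between 55.2 and 61.9 on the other 4 arrays. The 3′ to 5′ signal ratio of the ACTB control probe sets, a sign of RNA integrity and amplification, was 1.79, 2.89 and 1.29 with control and 1.96, 3.32 and 1.36 with miR21 in numbers 1, 2 and 3. It was higher with miR21 in each number, and its part in the results was not tested. The same ratio for GAPDH lay between 0.899 and 1.07 and was higher with miR21 in numbers 1 and 2 only. Of 10 epithelial and ovarian marker genes 8 lay above the signal filter, among them EPCAM, KRT8, PAX8 and ERBB2, while MUC16 and WT1 did not. Of the markers of other cells, 2 of 6 fibroblast, 0 of 4 leukocyte and 1 of 3 endothelial genes lay above it. The fibroblast sum ranged from 409 to 1076 on control arrays and from 345 to 1279 on miR21 arrays, the leukocyte sum from 76.0 to 249.9 and from 25.1 to 166, and the endothelial sum from 73.9 to 652 and from 63.3 to 500.3.

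For the comparison of miR21 with control, log2 signals were fitted with limma over the 27304 probe sets whose mean log2 signal reached the median of the array (6.03, a signal of 65.5). Of the 31 member probe sets 28 passed this filter, and of the 7 that name DGCR8 or AGO2 with another gene 6 did. The fit called 0 of the 28 and 0 of the 6 at an adjusted p under 0.05. It called 0 of all 27304, or 0%, and held 533 of them at an unadjusted p under 0.05, none of which was a member. In the limma fit that takes the replicate number as a block, 5 of the 27304 passed (0.0183%), again no member. That fit held 4842 of the 27304 at an unadjusted p under 0.05, among them 4 of the 28, which were 3 VMP1 probe sets and 224705_s_at of TNRC6A, and 1 of the 6, 219811_at of DGCR8. The median log2 difference of the 28 was -0.05, and that of all tested probe sets was -0.04. Within numbers 1, 2 and 3 the median of the 28 was -0.22, -0.37 and 0.16, against -0.05, -0.05 and -0.01 for all.

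**Figure D1:**
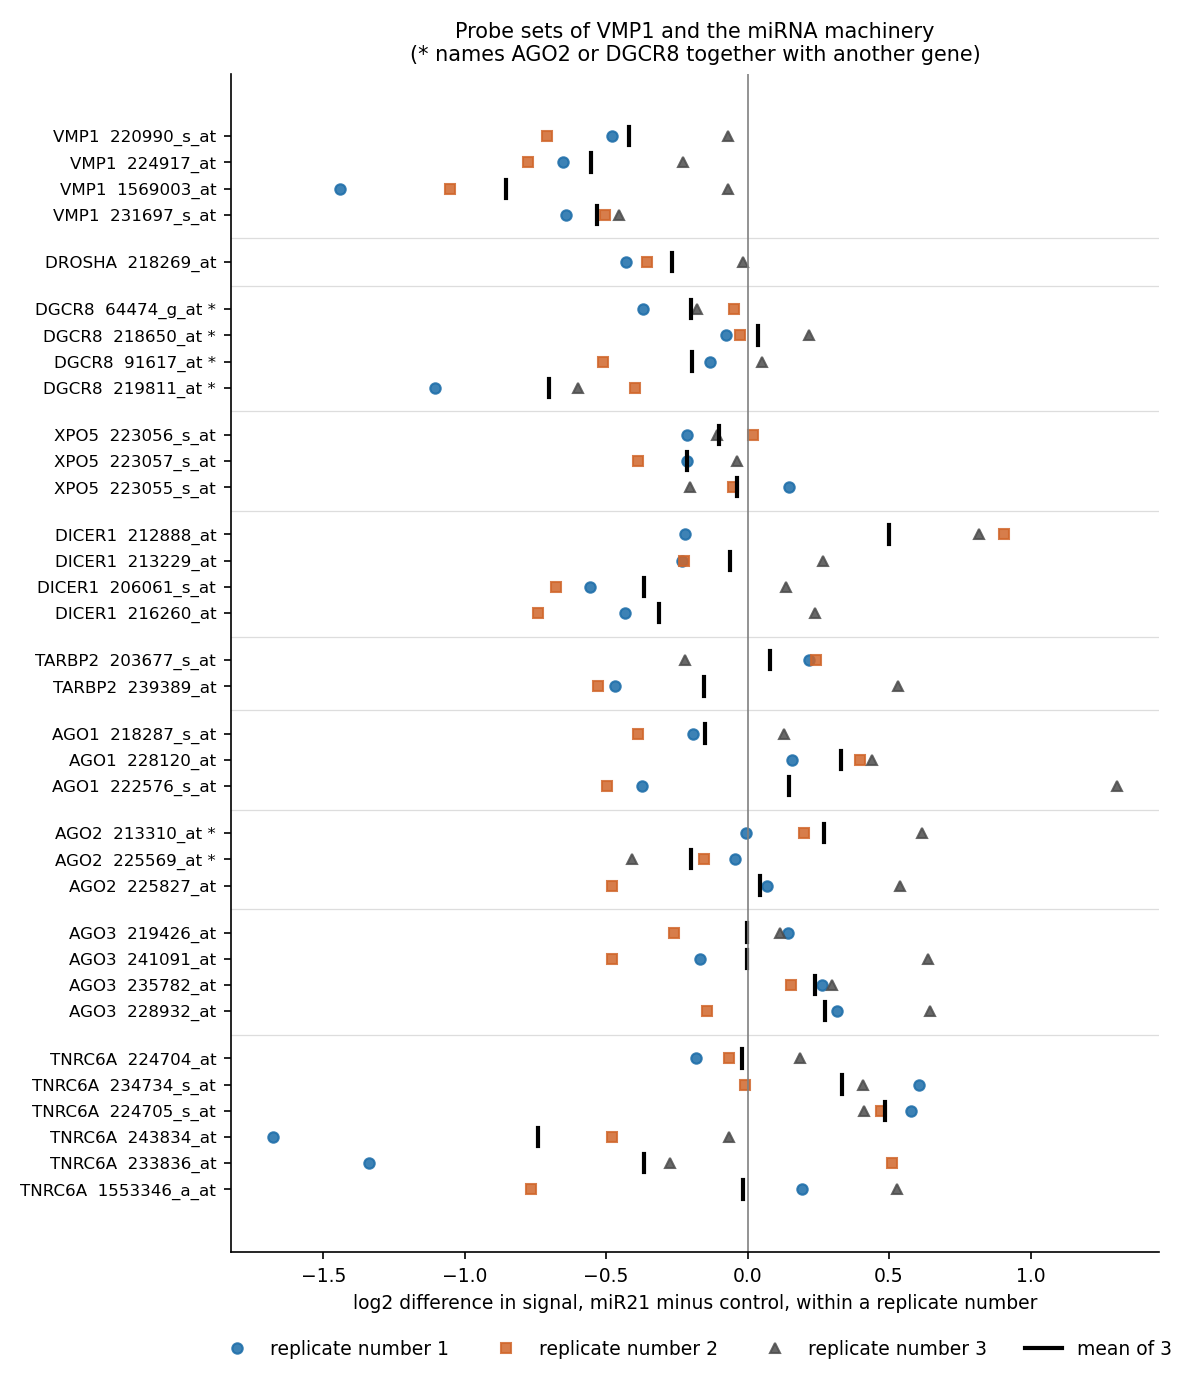
Log2 difference in MAS5 signal, miR21 minus control (x axis), within each replicate number (coloured symbols), with the mean of 3 as a black bar. Rows are the 28 member probe sets above the signal filter and, marked *, the 6 that name DGCR8 or AGO2 with another gene. All 12 VMP1 points lie below 0. With marked rows included, each of DGCR8, DICER1, TARBP2, AGO1, AGO2 and TNRC6A has means on both sides of 0.

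The direction of the 28 was also counted without a test. In all 3 replicate numbers 7 were lower and 3 were higher with miR21. Of all tested probe sets 21.3% were lower and 18.0% were higher in all 3 numbers. VMP1 supplied 4 of the 7, and the other 24 member probe sets held 3 lower and 3 higher. Of the 6 tested probe sets that name DGCR8 or AGO2 with another gene, 3 were lower and 0 were higher in all 3 numbers. With these included, the 30 tested probe sets outside VMP1 held 6 lower and 3 higher. The values of the groups did not overlap for 2 member probe sets on the lower side, both of VMP1, and for 1 on the higher side, of AGO1. Over all tested probe sets these shares were 3.47% and 2.82%.

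VMP1 is described first because MIR21 lies inside its span. The signals of the 3 probe sets that also name MIR21 cannot be assigned to either name. Probe set 220990_s_at, which names VMP1 with MIR21, read 11246, 5425 and 3985 in control samples 1, 2 and 3, and 8077, 3320 and 3803 in the miR21 samples of the same numbers. The groups overlapped, since number 1 was high in both, and within each number the miR21 array was the lower. In bulk RNA of this kind, fewer cells with the transcript and less of it per cell cannot be told apart. The log2 difference was -0.42 (SE 0.49, limma adjusted p = 0.999994; with the replicate block SE 0.16 and adjusted p = 0.244).

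Probe set 224917_at, which also names both genes, read 8282, 7432 and 3477 with control and 5267, 4339 and 2970 with miR21. Control 3 lay below miR21 arrays 1 and 2, so the groups overlapped here as well. The mean difference was -0.55 on the log2 scale, or 1.47-fold lower (SE 0.41, limma adjusted p = 0.999994; with the block SE 0.16, adjusted p = 0.168). The differences within numbers 1, 2 and 3 were -0.65, -0.78 and -0.23.

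Probe set 1569003_at names VMP1 alone. It read 813, 1336 and 749.8 with control and 299.4, 645 and 714 with miR21, so every miR21 array lay below every control array. Its log2 difference of -0.85, or 1.81-fold lower, was the most negative among the VMP1 probe sets (SE 0.44, limma adjusted p = 0.999994; with the block SE 0.26, adjusted p = 0.183). The difference was -1.44 in number 1, -1.05 in number 2 and -0.07 in number 3. The exact permutation test, two-sided, put it at p = 0.1, the smallest that 3 arrays against 3 allow.

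Probe set 231697_s_at names both genes and read 278, 194 and 244 under control and 178, 137 and 178 under miR21. The groups did not overlap (exact two-sided permutation p = 0.1). Its differences of -0.64, -0.50 and -0.45 in numbers 1, 2 and 3 varied least among the VMP1 probe sets (mean -0.53, SD 0.10, n = 3). The limma SE was 0.36, and with the block it was 0.24 (adjusted p = 0.303).

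**Figure D2:**
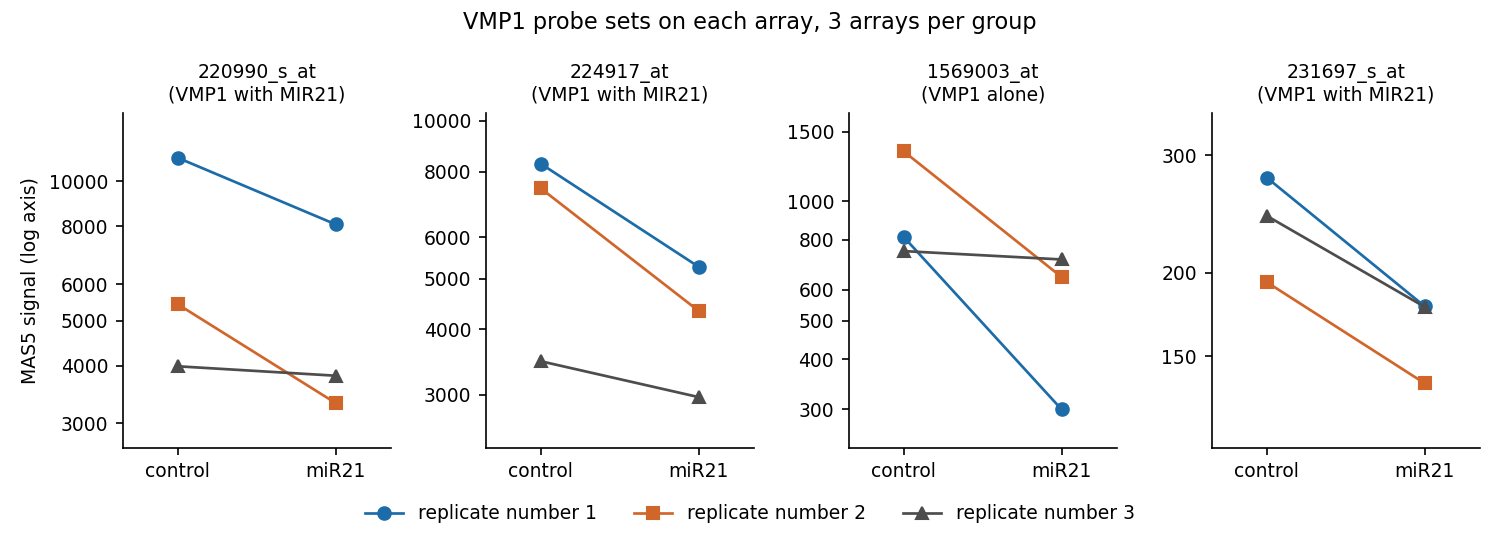
MAS5 signal (log axis) of the 4 VMP1 probe sets on the control and miR21 arrays, with a line joining the arrays of each replicate number. All 12 lines go down from control to miR21; those of number 3 are nearly level for 220990_s_at (3985 to 3803) and 1569003_at (749.8 to 714).

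Of the 1301 genes with at least 4 tested probe sets, all tested probe sets were lower in all 3 numbers for 29 genes, VMP1 among them (2.23%), and higher for 20 genes (1.54%). A lower mean difference at all tested probe sets, which VMP1 also had, was found for 20.8% of these genes. The size of the VMP1 differences depended on which arrays entered. With 1 or both arrays of a number left out, the difference of 220990_s_at ran from -0.81 (without miR21 replicate 1) to 0.01 (without control replicate 1). That of 224917_at ran from -0.94 (without control replicate 3) to -0.32 (without control replicate 1), and that of 231697_s_at from -0.67 to -0.40. For 1569003_at the value nearest to 0 was -0.46, without miR21 replicate 1. Leaving out 1 array unpairs its number, so the level of that number then enters the group difference. With both arrays of number 1, 2 or 3 left out, the difference of 220990_s_at was -0.39, -0.27 and -0.59. The other VMP1 probe sets were also lower in each of these fits. Without both arrays of number 3, the block fit called 3 of the 4 VMP1 probe sets, 1569003_at (log2 difference -1.25, limma adjusted p = 5.99e-09), 224917_at (-0.71, adjusted p = 1.03e-05) and 220990_s_at (-0.59, adjusted p = 0.000369). That fit has 2 pairs and 1 residual degree of freedom, and it called 7243 of all tested probe sets (26.5%). It called 6 of the 28 member probe sets (21.4%).

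Over the 6 arrays, the log2 profile nearest to that of 220990_s_at, the VMP1 probe set of highest mean signal, was that of CCDC9, followed by the integrin gene ITGB1 and the transcription factor gene E2F7. The root mean square distances were 0.0770, 0.0776 and 0.0781 log2 units after centring each gene on its own mean. The other VMP1 probe sets lay farther away, at 0.408, 0.978 and 0.509 for 224917_at, 1569003_at and 231697_s_at. The genes named are near to this 1 probe set and were not compared with the others. They were picked as the smallest distances among all genes, each taken with 1 probe set. For 220990_s_at the replicate number took 84.7% of the sum of squares and the group 10.9%. The likeness is therefore mostly one of levels across numbers.

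The genes beside VMP1 on 17q23 differed in direction: of the 4 measured, TUBD1 was lower in all 3 numbers and RPS6KB1 was higher in all 3. Of 5 listed neighbours 4 were measured by a probe set that names 1 gene, and PTRH2, which lies 224 bases before VMP1, is not analysed here. RPS6KB1, which encodes the S6 kinase, read 1107, 1049 and 792 with control and 1823, 1604 and 1189 with miR21. Its log2 difference was 0.64 (SE 0.31, limma adjusted p = 0.999994; with the block adjusted p = 0.136), and it was higher in 3 of 3 numbers. Its other 2 tested probe sets differed by -0.05 and 0.25.

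TUBD1, the delta-tubulin gene, has its span 17224 bases beyond the end of VMP1. It was lower in 3 of 3 numbers (-0.57, -0.83 and -0.04). Its mean difference was -0.48 (with the block limma adjusted p = 0.290), and its other 2 tested probe sets differed by -0.42 and -0.17. The clathrin heavy chain gene CLTC differed by 0.00, with 13944, 21928 and 26702 with control and 13790, 24122 and 24588 with miR21. RNFT1 differed by 0.72, 0.85 and -0.49 in numbers 1, 2 and 3, with opposite signs. Of the 4 neighbours 0 passed limma with or without the block.

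In the nuclear step, DROSHA was read by 1 probe set, which gave 2143, 3207 and 3208 with control and 1591, 2505 and 3174 with miR21. It was lower in each number (-0.43, -0.36 and -0.02), and the groups overlapped. The mean difference was -0.27 (SE 0.35, limma adjusted p = 0.999994; with the block SE 0.15, adjusted p = 0.389). It was 0.01 without miR21 replicate 1, and -0.19, -0.22 and -0.39 without both arrays of number 1, 2 or 3. The block fit without number 3 called DROSHA (limma adjusted p = 0.0350), as it did 26.5% of all tested probe sets.

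The 4 probe sets that name DGCR8 with MIR1306 did not give a single picture of this DROSHA partner. Probe set 64474_g_at read 1403, 1652 and 1920 with control and 1086, 1599 and 1696 with miR21 (log2 difference -0.20, SE 0.31). This probe set was lower in 3 of 3 numbers (-0.37, -0.05 and -0.18), and the groups overlapped. Probe set 219811_at read 575, 191 and 300.3 with control and 268, 145 and 198 with miR21. It was lower in 3 of 3 numbers, with differences of -1.10, -0.40 and -0.60 (mean -0.70, SE 0.49, limma adjusted p = 0.999994; with the block SE 0.25, adjusted p = 0.216), and without both arrays of number 3 the block fit called it (-0.75, adjusted p = 0.0398). That fit called 26.5% of all tested probe sets. The difference of 219811_at was -0.28 without control replicate 1, -1.07 without control replicate 2 and -0.26 with array weights. Without both arrays of number 1 or 2 it was -0.50 and -0.85. The other two differed by 0.04 and -0.20 and had mixed signs across numbers. MIR1306 lies inside DGCR8 (chr22:20086058-20086142 within chr22:20080241-20111872), and the signals of these probe sets cannot be assigned to either name.

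XPO5, the export receptor, differed by -0.10, -0.21 and -0.04 at 223056_s_at, 223057_s_at and 223055_s_at. Probe set 223056_s_at read 2672, 3490 and 3834 with control and 2301, 3532 and 3555 with miR21, and the groups overlapped. Only 223057_s_at was lower in all 3 numbers, with 799.6, 995 and 899 under control and 689, 762 and 876 under miR21 (SE 0.29, limma adjusted p = 0.999994; with the block adjusted p = 0.535). The difference of 223055_s_at changed sign with median centring (0.06) and with quantile normalization (0.03).

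DICER1, the cytoplasmic processing enzyme, varied far more between replicate numbers than between groups. Probe set 212888_at read 1047, 105 and 137 in numbers 1, 2 and 3 with control and 898, 197 and 241 with miR21. Both arrays of number 1 were high and the other 4 low, and 213229_at showed the same order, with 601, 129 and 143 against 512, 111 and 173. The log2 differences of 212888_at were -0.22, 0.91 and 0.82 in numbers 1, 2 and 3 (mean 0.50, SE 0.96, limma adjusted p = 0.999994; with the block SE 0.28, adjusted p = 0.385). Its mean difference was -0.18 without miR21 replicate 1 and 1.54 without control replicate 1. With both arrays of number 1, 2 or 3 left out it was 0.86, 0.30 and 0.34.

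The other DICER1 probe sets above the filter had means of -0.06 (213229_at), -0.37 (206061_s_at) and -0.31 (216260_at), all with mixed signs, and that of 213229_at was 0.04 with arrays centred on their median. The 2 DICER1 probe sets below the filter, 216281_at and 216280_s_at, had signals of at most 49.0 on every array. TARBP2, the gene of the DICER1 partner TRBP, was read by 203677_s_at with 598, 1032 and 1356 with control and 696, 1221 and 1163 with miR21, a difference of 0.08 (SE 0.41). Its second probe set differed by -0.16, and both had mixed signs across numbers.

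**Figure D3:**
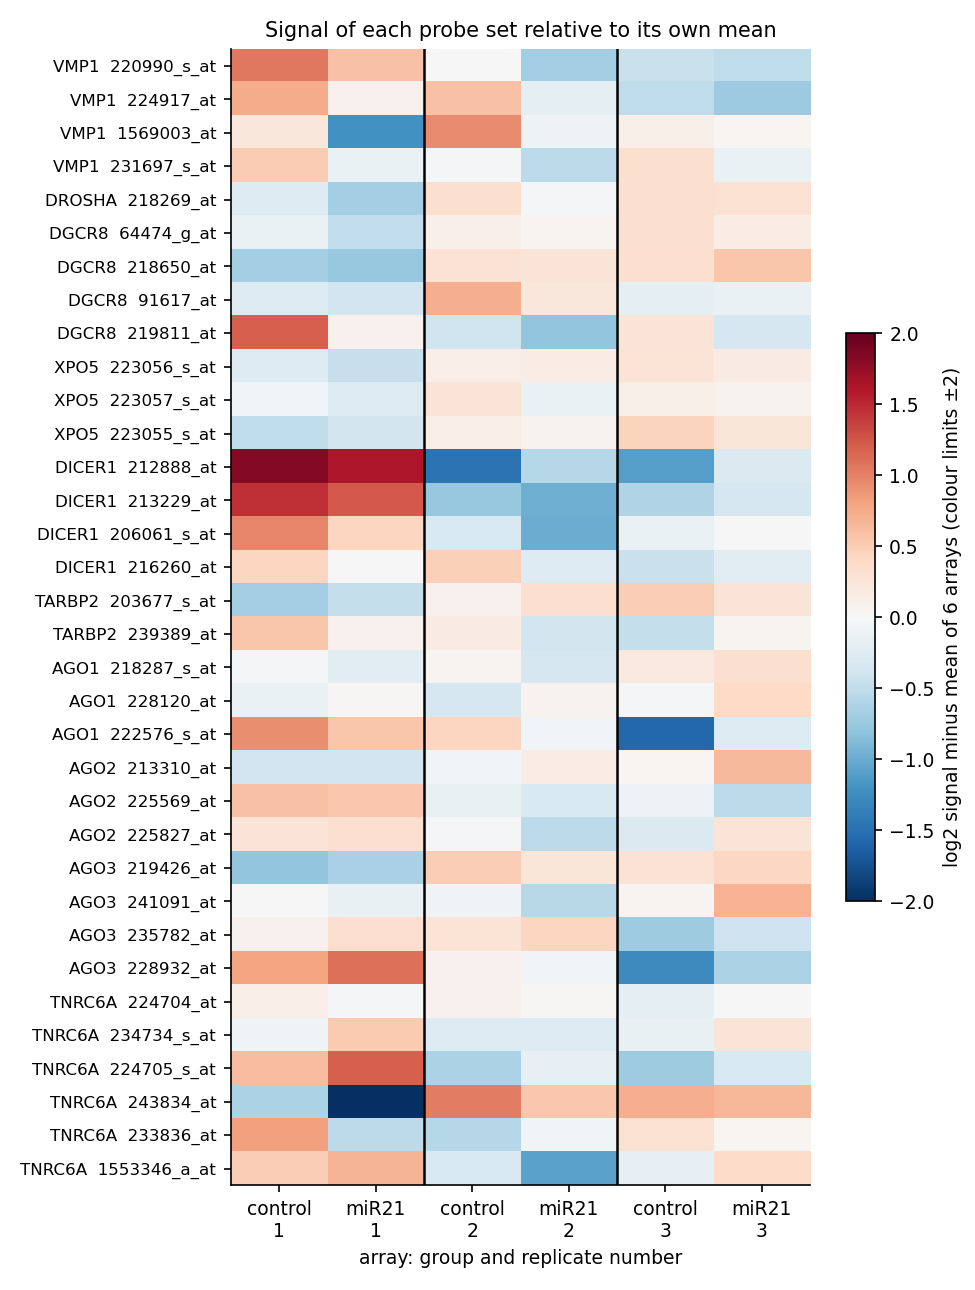
Log2 signal relative to each probe set's mean over the 6 arrays (colour, limits ±2, which 243834_at on miR21 array 1 exceeds). Rows are the 28 member probe sets above the filter and the 6 that name DGCR8 or AGO2 with another gene. Control and miR21 arrays are side by side within replicate numbers 1, 2 and 3. Most rows differ more between numbers than between groups, most visibly DICER1, whose probe sets 212888_at and 213229_at are high on both arrays of number 1.

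The share of variance gave the same picture across the members. For 31 of the 34 tested probe sets that name a member, the replicate number took a larger share of the sum of squares over the 6 arrays than the group did. The same held for 23527 of all 27304 tested probe sets. Since the number has more levels than the group, it tends to take the larger share even without an effect. The median shares were 78.6% for the number and 8.59% for the group, against 77.7% and 7.31% over all tested probe sets. The exceptions were 1569003_at and 231697_s_at of VMP1, with 44.8% and 64.3% for the group, and 228120_at of AGO1, with 55.8%.

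AGO1, a non-slicing Argonaute, was read by 4 probe sets. Probe set 228120_at read 776, 673 and 826 with control and 866, 886 and 1120 with miR21, so every miR21 array lay above every control array (exact two-sided permutation p = 0.1). Its log2 difference was 0.33, a signal 1.26-fold higher (SE 0.29, limma adjusted p = 0.999994; with the block SE 0.16, adjusted p = 0.335). Within numbers 1, 2 and 3 it was 0.16, 0.40 and 0.44.

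The other AGO1 probe sets did not share this. Probe set 218287_s_at read 881, 926 and 1018 with control and 771, 707 and 1112 with miR21, a difference of -0.15 with mixed signs. Probe set 222576_s_at, close to the filter, differed by 0.15, from -0.37 and -0.50 in numbers 1 and 2 and 1.31 in number 3. The fourth, 239036_at, lay below the filter with signals of 7.81, 13.1 and 52.0 on control and 57.0, 58.9 and 60.9 on miR21 arrays. It was not tested, and MAS5 signals this low are noisy on a log scale.

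AGO2, the Argonaute that can cut its target, was named alone by 225827_at, with 554, 448 and 379 with control and 581, 321 and 552 with miR21. The groups overlapped and the mean difference was 0.04 (SE 0.36, limma adjusted p = 0.999994; with the block adjusted p = 0.944). Of the probe sets that name AGO2 with CASC7, 213310_at differed by 0.27 and 225569_at by -0.20, and the latter was lower in 3 of 3 numbers (-0.04, -0.15 and -0.41). Opposite differences at probe sets of a single gene leave no direction for AGO2.

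AGO3 had 4 probe sets above the filter, with mean differences of 0.00, 0.00, 0.24 and 0.27 for 219426_at, 241091_at, 235782_at and 228932_at. Probe set 235782_at was higher in 3 of 3 numbers (0.26, 0.15 and 0.30), with 336, 383 and 195 on control and 403, 426 and 239.6 on miR21 arrays. The groups overlapped (SE 0.41; with the block SE 0.21, adjusted p = 0.580), and the difference was -0.06 without control replicate 3. The difference of 235782_at was 0.23, 0.28 and 0.21 without both arrays of number 1, 2 or 3. AGO1 (chr1:35869761-35930532) and AGO3 (chr1:35930718-36072500) are neighbours in the genome.

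TNRC6A, the scaffold that follows Argonaute, gave the widest range among its own probe sets above the filter, from -0.74 to 0.49. Probe set 224705_s_at read 1552, 653 and 615 with control and 2313, 907 and 818 with miR21, higher in each number by 0.58, 0.47 and 0.41. The groups overlapped because number 1 was high in both (SE 0.54, limma adjusted p = 0.999994; with the block SE 0.15, adjusted p = 0.191). Its mean difference of 0.49 was 0.01 without miR21 replicate 1 and 0.92 without control replicate 1. With both arrays of number 1, 2 or 3 left out it was 0.44, 0.49 and 0.52.

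Probe set 243834_at went the other way, with 159, 504 and 410 on control and 49.9, 362 and 392 on miR21 arrays. Its mean difference was -0.74 (SE 0.86, limma adjusted p = 0.999994; with the block SE 0.33, adjusted p = 0.292), and it was 0.23 without miR21 replicate 1. The difference of 243834_at was -0.27 and -0.87 without both arrays of number 1 or 2. Without both arrays of number 3 the block fit called 224705_s_at as higher (0.52, limma adjusted p = 0.00897) and 243834_at as lower (-1.08, adjusted p = 0.00659). That fit called 26.5% of all tested probe sets. TNRC6A probe set 224704_at read 1846, 1773 and 1472 with control and 1626, 1696 and 1674 with miR21, a difference of -0.02 (SE 0.27). The remaining TNRC6A probe sets differed by 0.34, -0.37 and -0.01, all with mixed signs.

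Other genes of the pathway were examined in 4 lists, with 1 probe set per gene. Of 62 listed genes 59 were measured, and 0 passed limma with or without the block, against 0% and 0.0328% of the 12204 genes measured in this way. In all 3 numbers 13 of the 59 were higher and 11 were lower, shares that can be set beside 20.3% and 20.9% of all genes. Their median log2 difference was -0.04, and that of all genes was -0.01. With each array centred on its median these became 0.06 and 0.09, and the number of the 59 with a mean difference below 0 went from 33 to 16 (from 51.2% to 40.0% of all genes).

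Of the genes of export and Argonaute loading 0 passed the test. All 9 measured members had a negative mean difference, 6 of them in all 3 numbers, with a median of -0.13. With median centring 6 of the 9 were negative and the median was -0.03, since FKBP4, TSN and TSNAX turned positive, and other probe sets of FKBP4 and TSN reached 0.08 and 0.01 without it. RAN, the GTPase that drives XPO5 cargo export, read 17059, 20599 and 25094 with control and 10947, 14850 and 18952 with miR21. Its log2 difference was -0.51 (SE 0.30, limma adjusted p = 0.999994; with the block SE 0.14, adjusted p = 0.168), while another RAN probe set differed by 0.18. The exportin gene XPO1 differed by -0.31, with its other probe sets at -1.32 and -0.68, and the HSP90 co-chaperone gene PTGES3 by -0.23. HSPA8 is named together with other genes on this array and was not used here.

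Genes of miRNA tailing and turnover had a median of 0.22 over 9 measured members, 7 with a positive mean difference and 4 of these in all 3 numbers, and 0 passed the test. With median centring all 9 were positive, since TENT4B and TUT7 turned positive, and the median was 0.32. The same centring moved the median of all genes from -0.01 to 0.09. ZSWIM8, the ubiquitin ligase adaptor of target-directed microRNA degradation, read 665, 994 and 721 with control and 1039, 1890 and 842 with miR21 (log2 difference 0.60, SE 0.39, limma adjusted p = 0.999994; with the block SE 0.18, adjusted p = 0.184). The poly(A) ribonuclease gene PARN differed by 0.25 and the exoribonuclease gene PNPT1 by 0.22. LIN28A and LIN28B, which block maturation of let-7, lay below the filter.

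The 11 nuclear processing cofactors had a median of 0.01, with 6 positive and 5 negative differences (9 and 2 with median centring) and 0 past the test. The helicase gene DDX5, a partner of DROSHA, read 984, 1213 and 810.0 with control and 1653, 2094 and 979 with miR21 (log2 difference 0.60, SE 0.37, limma adjusted p = 0.999994; with the block SE 0.17, adjusted p = 0.165). The cap-binding gene NCBP2 differed by 0.22 and KHSRP by 0.16, with other KHSRP probe sets from -1.20 to 0.08.

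The 30 silencing effectors had a median of -0.02, with 13 positive and 17 negative differences (22 and 8 with median centring, median 0.08) and 0 past the test. CNOT9, a subunit of the CCR4-NOT deadenylase, read 2121, 3125 and 2346 with control and 1133, 1811 and 1850 with miR21. The groups did not overlap, and its log2 difference was -0.68 (SE 0.33, limma adjusted p = 0.999994; with the block SE 0.16, adjusted p = 0.141). Its other 3 tested probe sets were between -0.63 and -0.43. The deadenylase gene CNOT8 differed by -0.47 and CNOT10 by 0.54, so subunits of this complex lay on both sides.

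**Figure D4:**
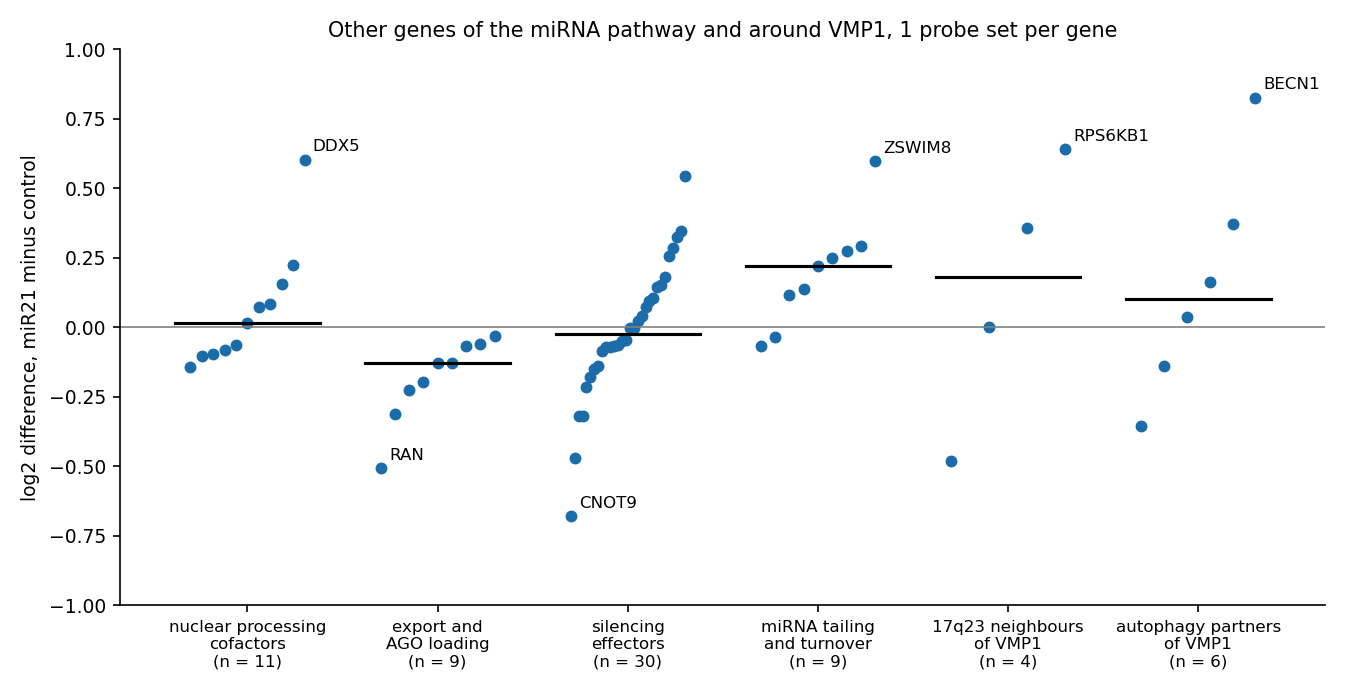
Mean log2 difference, miR21 minus control (y axis), for each measured gene of the pathway lists, the VMP1 neighbours and the autophagy partners of VMP1 (1 point per gene, in order of size), with the list median as a black line and the gene of smallest p named. Medians run from -0.13 (export and Argonaute loading; -0.03 with median centring) to 0.22 (tailing and turnover), and 0 genes passed the test.

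Among the 6 autophagy genes listed beside VMP1, BECN1 had the largest positive difference. BECN1, a subunit of the PI3-kinase complex that starts autophagosomes, read 2099, 1865 and 1175 with control and 4404, 3039 and 1915 with miR21. Within numbers 1, 2 and 3 it was higher by 1.07, 0.70 and 0.71, and another probe set differed by 0.59. Its mean log2 difference of 0.83 did not pass limma (SE 0.40, adjusted p = 0.999994; with the block SE 0.15, adjusted p = 0.0999). TMEM41B, a scramblase gene related to VMP1, differed by 0.37 and EPG5 by -0.36, and the list median was 0.10.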

How the data were processed

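The deposited table holds linear intensity signals, 1 per probe set and array, which were computed with MAS5 per the submitters' processing notes; version and settings: not given in the sources used here. Every array had been brought to an average of 500 (2% trimmed from each end), which hides any change common to most transcripts. Among 54613 probe sets (62 controls set aside) 41091 carry a single gene name, 1801 carry several and 11721 carry none. Signals were taken as log2 without a pseudocount and fitted with limma 3.58.1 in R 4.3.3 (variance trend, Benjamini-Hochberg, 0.05), over probe sets because the members are probe sets. Lists used the probe set of highest mean signal per gene. Named beyond the members were the 3 genes of smallest p per list, all 17q23 neighbours and the 3 genes nearest to VMP1. Members and lists were chosen with earlier results of these data known.

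The replicate numbers come from the titles. Deviations from the group means correlated with r = 0.878, 0.643 and 0.630 within numbers 1, 2 and 3 over the tested probe sets, so the numbers were taken to pair the arrays; numbers 2 and 3 crossed gave 0.246 and 0.349. The labels do not state that replicates were separate cultures, so the p-values reflect the spread among these samples, which may be technical. The steps were tested on simulated data, with changes larger than any mean difference of a tested member. Recovery of changes as small as those reported here was not tested. Alternatives were the replicate block, quantile normalization, median centring, a pseudocount of 16, other filters, no trend, array weights, other probe set rules and arrays left out.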

Additional observations from a re-analysis of the deposited data

How the results depend on the processing

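The median log2 difference of the member probe sets (-0.05) moved by less than its spread between replicate numbers under all 20 alternatives, and with arrays left out it lay between -0.29 and 0.00. The count of members past the threshold stayed at 0, except that it ranged from 0 to 6 when arrays were left out, with 6 in the block fit without both arrays of number 3. Over all probe sets the count of 0 became 5 with the replicate block and 4 with 1 probe set per gene and the replicate block, an alternative added after the data were seen. With arrays left out it ranged from 0 to 7243, with 56 in the block fit without number 1 and the highest value again without number 3. Of the 69 list genes 0 passed, except in that fit, where 17 did, so the range was 0 to 17. The cause of these changes was not tested. The replicate block changed no call of a member or list gene.

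Of the 34 tested probe sets that name a member, 11 kept their sign in every fit that held them, and 6 of AGO3, DICER1, TNRC6A and XPO5 changed it with median centring, 4 of these also with quantile normalization; the differences of all 6 lay at 0.06 or less in size. Dim probe sets limit what can be read for AGO1, AGO2 and DICER1, each of which has a probe set below the filter.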
